A study of Mus musculus with 36 samples.

Results

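miR-142a is a microRNA (miRNA) that blood cells make and most other tissues do not, and both strands of its hairpin are used as mature miRNAs, the 5p arm and the 3p arm. The 2 entries named mmu-miR-142a-5p and mmu-miR-142a-3p were taken by name from 1966 mature miRNA names counted in a small RNA sequencing study of CD4 T cells with 36 libraries. Both were counted in each of the 36 libraries, and both passed the filter on low counts in both experiments.

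The cells were CD4+ TCRb+ T cells sorted by flow cytometry from spleens of C57BL/6J mice. In the first experiment, AGO134-/- cells, which lack Argonaute (AGO) 1, 3 and 4, were set against wild-type (WT) cells. The libraries numbered 4 AGO134 knockout and 4 WT in naive cells. Cells cultured towards the T helper 2 (Th2) fate gave 4 and 4 libraries at day 7, and 3 and 3 at day 14. In the second experiment, CD4Cre;R26LSLeYFP;AGO2f/f cells (AGO2 knockout) were set against CD4Cre;R26LSLeYFP cells (Cre). Both of these genotypes carry the Cre transgene and the fluorescent reporter, and the CD4 promoter that drives Cre is active in T cell lineages. This experiment held 4 AGO2 knockout and 3 Cre libraries of naive cells, and 4 and 3 of Th2 cells. Their culture lasted 5 days by the sample labels, which are followed here, and 7 days by the series text. No label says that replicates came from separate animals, so the spread that p-values measure here may be technical. Argonaute mRNA is not measured by miRNA counts, and the genotype labels were not checked.

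An Argonaute protein binds 1 strand of a processed hairpin and carries it to target mRNAs, which it pairs with mainly through the seed, bases 2 to 8 of the miRNA. The strand that is not bound is usually lost, so the balance of the arms depends on which strand is bound and how long it is kept. In mice, loss of the miR-142 locus disturbs T cells, dendritic cells, mast cells and platelets. Both arms have known targets in T cells.

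The mature sequences show that the arms have different seeds and so read different target sites. They are given 5′ to 3′ with the seed in capitals, from RefSeq (GRCm38.p6), and the third line is mmu-miR-142b, an entry of the same locus read from the opposite strand.
mmu-miR-142a-5p: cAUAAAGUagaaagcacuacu
mmu-miR-142a-3p: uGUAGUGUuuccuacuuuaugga
mmu-miR-142b: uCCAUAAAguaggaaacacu
The hairpin is shown because the arms are compared within it throughout. Its mature arms are in capitals, 5p first.
Mir142 hairpin: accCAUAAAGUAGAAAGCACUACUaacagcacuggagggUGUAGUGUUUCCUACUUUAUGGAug

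The Mir142 hairpin lies at chr11:87756864-87756927 on the plus strand of GRCm38, the 5p arm at chr11:87756867-87756887 and the 3p arm at chr11:87756903-87756925. It sits in the intron between exon 1 (chr11:87755577-87755613) and exon 2 (chr11:87757039-87757270) of the long noncoding RNA gene Mir142hg. None of the other mature names among the 1679 in the RefSeq table shares either seed, a count of 0. mmu-miR-142b lies inside the reverse complement of miR-142a-3p and shares a run of 10 bases with miR-142a-5p. It received 2 counts in the whole first experiment, 1 in Th2 day 7 AGO134 knockout library 3 and 1 in naive WT library 2, and 0 in the second. The sources used here do not state whether counting used strand.

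Depth set the precision of the arms. Libraries of the first experiment held 64264 to 273724 miRNA counts, with 254 to 2747 counts of 5p and 189 to 1187 counts of 3p. Libraries of the second held 596 to 58357, with 7 to 234 counts of 5p and 1 to 482 of 3p. Entries named STD, which name no miRNA and were kept out of library sizes, took 35.7% to 56.9% of all counts of libraries in the first experiment, against 32.0% to 86.7% for libraries of the second. A further entry, miR-5099, took 0.836% to 1.87% of miRNA counts there, against 9.85% to 65.8% in libraries of the second, which lowers their levels per 1000000 miRNA counts (CPM). The naive Cre libraries B and C stood apart, with 596 and 2156 miRNA counts, and the tested changes of the arms and their ratio that use them are given also with library A as the only naive Cre library. The miRNAs of 5 lists of cell type markers were summed. The 5 lymphocyte miRNAs summed to between 41667 and 151064 CPM in the first experiment, against 17625 to 56315 CPM in the second. The 3 myeloid miRNAs, which include miR-223-3p, summed to 0 to 40.7 CPM and to 0 CPM. The red cell and platelet list summed to 74.3 to 872 CPM in the first experiment and to 0 to 60.7 CPM in the second. Its member miR-451a, the defining miRNA of red cells, was at 0 in 9 of the 10 groups. The endothelial and stromal list summed to 77.8 to 1269 CPM and to 0 to 1678 CPM. The epithelial, liver, muscle and nerve list summed to 727 to 4927 CPM and to 0 to 1391 CPM.

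In the first experiment the 5p arm was the more abundant in 22 of 22 libraries. miR-142a-5p ranged from 3952 to 11621 CPM and took ranks 24 to 46 among the miRNAs of a library. miR-142a-3p ranged from 1125 to 6037 CPM and took ranks 43 to 92. Together the arms made up 0.6805% to 1.71% of miRNA counts. In naive WT cells the absolute log2 ratio of the arms was 1.05, against a median of 2.62 over the 79 hairpins with both arms measured, and 18 of them had arms closer to balance. A ratio of read counts is not a ratio of molecules.

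**Figure D1:**
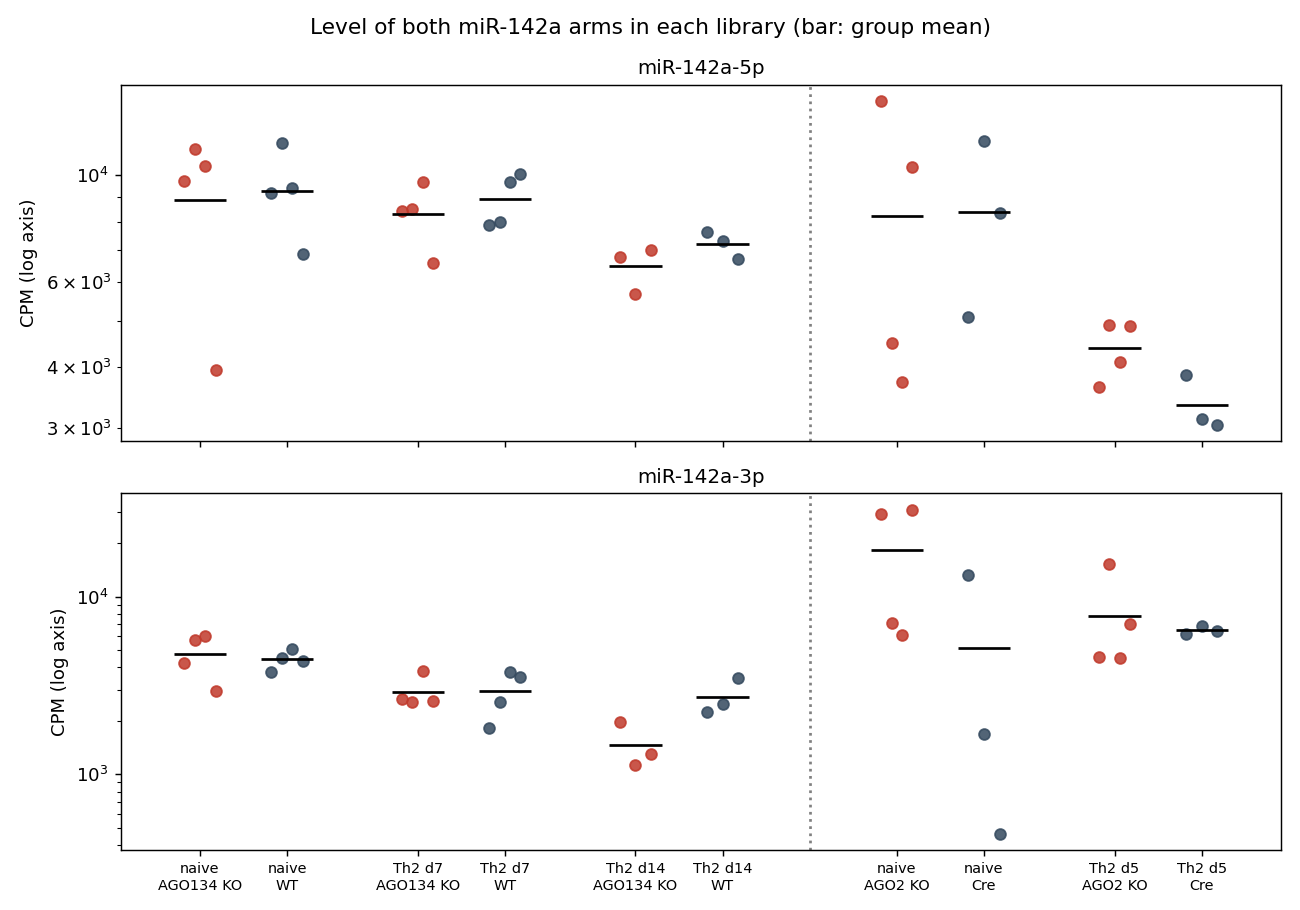
Level of miR-142a-5p (upper plot) and miR-142a-3p (lower plot) in CPM on log axes, 1 point per library, knockout left of its control at each stage, with bars at the group means and a dotted line between the experiments. The 3p level of the Th2 day 14 AGO134 knockout libraries, 1125 to 1983 CPM, lies below that of the WT libraries, 2245 to 3472 CPM, while the 5p levels of these groups overlap.

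Of the 10 comparisons of an arm's level between genotypes, that of the 3p arm in Th2 day 14 cells was the only one called. miR-142a-3p had 1983, 1125 and 1308 CPM in the AGO134 knockout libraries 2, 3 and 4, against 2245, 2492 and 3472 CPM in the WT libraries 1, 2 and 3. All knockout libraries were below all WT libraries, by a narrow margin between knockout library 2 and WT library 1. miR-142a-3p fell in the knockout, to 0.599-fold of WT, a log2 fold change of -0.74 (SE 0.23, edgeR quasi-likelihood test after TMM normalisation, Benjamini-Hochberg adjusted p = 0.0218). Of the 382 miRNAs tested, 19.6% were called in this comparison at an adjusted p under 0.05 and 10.7% were called lower, so a lower call was not rare among miRNAs. The call rests on few libraries. The adjusted p was 0.106 without WT library 3, 0.116 without knockout library 3 and 0.0851 without knockout library 4, with log2 fold changes of -0.55, -0.62 and -0.60. Under the other scalings, filters and tools run, the log2 fold change lay between -1.20 and -0.74 with adjusted p-values under 0.05.

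The 5p arm from the same hairpin was not called. miR-142a-5p had 6765, 5680 and 7008 CPM in the Th2 day 14 AGO134 knockout libraries, against 7634, 7296 and 6698 CPM in the WT libraries. The groups overlapped, and the log2 fold change after TMM normalisation was 0.00223 (SE 0.19, edgeR adjusted p = 0.998), with a negative sign when libraries were scaled by their totals only (-0.15).

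The ratio of 5p to 3p counts within a library needs no scaling between libraries. It was 3.41, 5.05 and 5.36 in the Th2 day 14 AGO134 knockout libraries, against 3.40, 2.93 and 1.93 in the WT libraries. The groups did not overlap, although knockout library 2 and WT library 1 were nearly equal. The log2 ratio averaged 2.17 ± 0.35 in knockout and 1.42 ± 0.42 in WT cells (SD, n = 3 each, with a pseudocount of 0.5). The difference of 0.75 missed the threshold in limma across 79 hairpins (adjusted p = 0.0711), where 1.27% of hairpins were called. The exact two-sided permutation test gave p = 0.1, the smallest that 3 against 3 can give. The same difference was called with a pseudocount of 5 (adjusted p = 0.0384), with an edgeR test of arm by group on the counts (0.0191) and without knockout library 2 (0.027). It was smaller and not called without WT library 3 (0.52, limma adjusted p = 0.493), knockout library 3 (0.67, adjusted p = 0.303) or knockout library 4 (0.63, adjusted p = 0.228). Among the 79 hairpins it was the 9th largest change by size.

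Depth and the STD share moved with genotype at this stage, as they did in naive and day 7 cells. The Th2 day 14 AGO134 knockout libraries held 177815 to 238454 miRNA counts and 41.0% to 45.2% STD counts, against 254369 to 265008 and 37.0% to 39.6% in the WT libraries. The counts behind the 3p level were 428, 200 and 312 in knockout and 595, 634 and 914 in WT libraries. The part of depth in the result was not tested. The summed marker lists overlapped between the groups. The myeloid list summed to 0 to 4.63 CPM in knockout and 0 to 3.93 CPM in WT libraries, with miR-223-5p and miR-511-3p at 0 in both. The red cell and platelet list summed to 171 to 315 CPM in knockout and 162 to 228 CPM in WT libraries. The endothelial and stromal list summed to 456 to 751 CPM in knockout and 527 to 740 CPM in WT libraries. In such bulk samples, fewer cells with a miRNA and less of it per cell cannot be told apart.

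In naive and Th2 day 7 cells the 3p arm was not called between genotypes. In naive cells miR-142a-3p had 4237, 5734, 6037 and 2941 CPM in the AGO134 knockout libraries 1 to 4, against 3758, 4542, 5072 and 4359 CPM in WT libraries 1 to 4. In Th2 day 7 cells it had 2658, 2566, 3841 and 2591 CPM in knockout, against 1826, 2570, 3777 and 3547 CPM in WT libraries. The groups overlapped at both stages. The log2 fold changes were 0.39 (SE 0.19, edgeR adjusted p = 0.179) in naive cells and 0.30 (SE 0.19, adjusted p = 0.374) at day 7, where 18.3% and 14.4% of miRNAs were called. Scaling to the STD entries turned their sign (-0.32 in naive and -0.33 in day 7 cells), and it shifted the median of all miRNAs to -0.77 in naive and -0.63 in day 7 cells. At day 7 it also turned with library totals only (-0.01). Knockout libraries were the shallower at both stages. They held 64264 to 195122 miRNA counts against 196357 to 243748 in naive cells, and 125803 to 190976 against 215215 to 273724 at day 7. Their STD share was 46.9% to 56.9% against 40.2% to 43.9% in naive cells, and 40.5% to 45.4% against 35.7% to 37.7% at day 7. The part of depth in these values was not tested.

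miR-142a-5p was likewise not called at either stage. It had 9700, 11335, 10455 and 3952 CPM in the naive AGO134 knockout libraries, against 9157, 11621, 9380 and 6865 CPM in the naive WT libraries. Its mean CPM was lower in knockout (8861 ± 3340) than in WT cells (9256 ± 1944, SD, n = 4 each), while the log2 fold change after TMM normalisation was 0.23 (SE 0.16, edgeR adjusted p = 0.366). Knockout library 4, the shallowest at 64264 counts, was the lowest, and without it the fold change was 0.45 and was called (edgeR adjusted p = 0.0167). At day 7 it had 8416, 8504, 9687 and 6582 CPM in knockout, against 7880, 8001, 9692 and 10036 CPM in WT libraries, a log2 fold change of 0.20 (SE 0.16, adjusted p = 0.481) that was -0.10 with library totals only.

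The arm ratio overlapped between genotypes at both stages. It was 2.29, 1.98, 1.73 and 1.34 in naive AGO134 knockout libraries, against 2.44, 2.56, 1.85 and 1.57 in naive WT libraries. At day 7 it was 3.17, 3.31, 2.52 and 2.54 in knockout, against 4.32, 3.11, 2.57 and 2.83 in WT libraries. The log2 changes were -0.20 in naive cells (limma adjusted p = 0.505, 31.6% of hairpins called) and -0.13 at day 7 (adjusted p = 0.726, 3.8% called). Exact two-sided permutation tests gave p = 0.457 and 0.543.

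**Figure D2:**
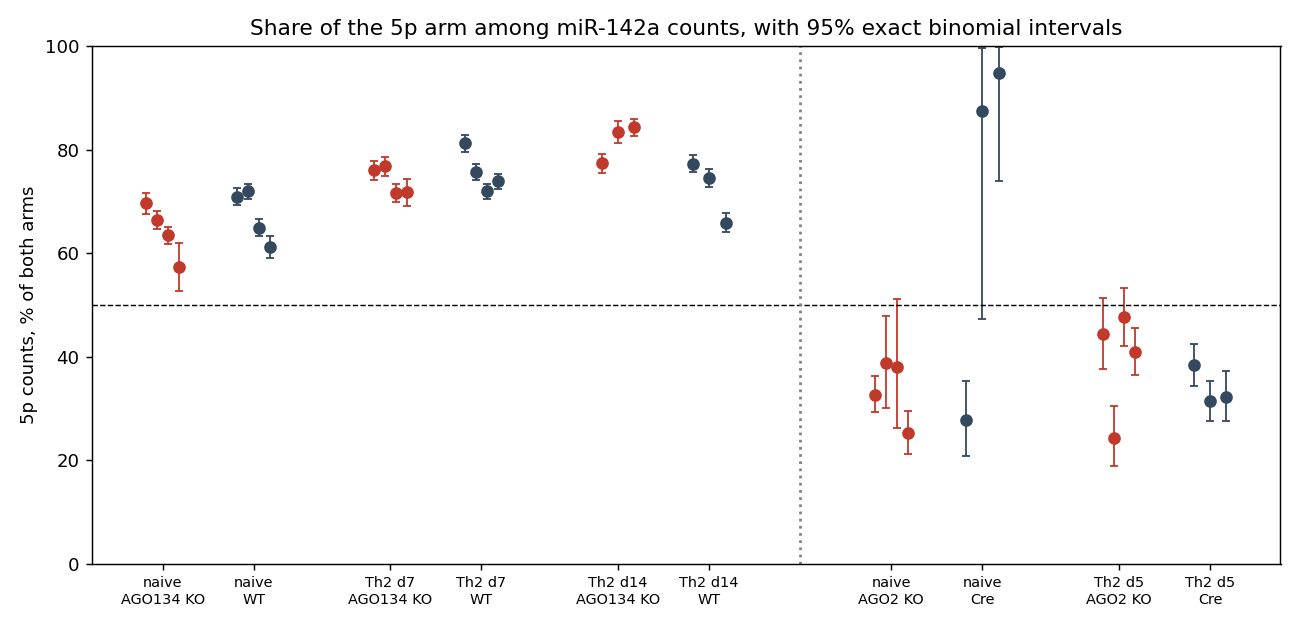
Share of 5p counts among the counts of both arms in each library, with exact (Clopper-Pearson) 95% binomial intervals that cover counting error only, knockout left of its control at each stage, and a dashed line at 50%. The share lies above 50% in 22 of 22 libraries of the first experiment and in 2 of 14 of the second, the naive Cre libraries B and C, whose 3p arm has 1 count each.

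The knockout effect on the 3p arm differed between the Th2 stages. The difference between the day 14 and the day 7 effect, fitted as an interaction, was -1.04 on the log2 scale for miR-142a-3p (SE 0.30, edgeR adjusted p = 0.0194), and such differences were called for 12% of miRNAs, 6.54% of them lower. For miR-142a-5p the difference was -0.20 (SE 0.25, adjusted p = 0.708). For the ratio it was 0.89 (SE 0.33, limma adjusted p = 0.288, 1.27% of hairpins called). The 3p interaction was no longer called with library totals only (-0.88, adjusted p = 0.102), when scaled to the STD entries (-0.87, adjusted p = 0.356), or without day 7 knockout library 3, day 14 WT library 3, or day 14 knockout library 3 or 4 (-0.84 to -0.78, adjusted p 0.0758 to 0.103). Between day 7 and naive cells the effects differed by -0.09 for 3p, -0.03 for 5p and 0.06 for the ratio, with adjusted p-values of 0.895, 0.972 and 0.907, where edgeR called 2.36% of miRNAs and limma 2.53% of hairpins.

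On Th2 culture the 3p arm fell in both genotypes by day 7, and in AGO134 knockout cells it fell again by day 14. In AGO134 knockout cells miR-142a-3p averaged 4737 ± 1433 CPM when naive (SD, n = 4), 2914 ± 619 at day 7 (n = 4) and 1472 ± 452 at day 14 (n = 3). In WT cells it averaged 4433 ± 542 CPM when naive (n = 4), 2930 ± 903 at day 7 (n = 4) and 2737 ± 649 at day 14 (n = 3). The log2 change at day 7 over naive was -0.87 in knockout (SE 0.20, edgeR adjusted p = 0.000249) and -0.79 in WT cells (SE 0.19, adjusted p = 0.000576). Most miRNAs changed on culture, 74.1% being called in knockout and 76.4% in WT cells. The share called lower was 34.3% in knockout and 36.9% in WT cells. The log2 change at day 14 over day 7 was -0.99 in knockout (SE 0.22, edgeR adjusted p = 0.000538, 44.8% called, 23.3% lower) and 0.06 in WT cells (SE 0.21, adjusted p = 0.838, 50% called). The knockout change had this sign and was called under each alternative run, each library left out included. The WT change turned sign under library totals (-0.10) and STD scaling (-0.15).

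The size of the fall at day 7 depends on what the libraries are scaled to. With scaling to the STD entries miR-142a-3p changed by -0.14 in AGO134 knockout (edgeR adjusted p = 0.675) and by -0.14 in WT cells (adjusted p = 0.663), and was called in neither. The median of all miRNAs then stood at 0.80 in knockout and 0.73 in WT cells. A scaling moves all miRNAs of a library alike, so the distance from that median is nearly the same under each scaling. Markers moved with culture. The list of 11 epithelial, liver, muscle and nerve miRNAs summed to 1651 to 1890 CPM at day 7, against 2459 to 4694 CPM in naive AGO134 knockout libraries, and to 1951 to 2521 CPM against 4003 to 4927 CPM in WT libraries. The lymphocyte list summed to 53345 to 62416 CPM at day 7, against 122740 to 151064 CPM in naive AGO134 knockout libraries, and to 57115 to 60773 CPM against 105268 to 118091 CPM in WT libraries. The endothelial and stromal list was higher at day 7, with 644 to 1001 CPM against 77.8 to 522 CPM in naive knockout libraries, and 962 to 1269 CPM against 147.7 to 370.1 CPM in WT libraries. The myeloid list summed to 0 to 3.65 CPM in day 7 WT and 20.5 to 40.7 CPM in naive WT libraries. The red cell and platelet list was lower at day 7, with 82.0 to 127 CPM against 171 to 507 CPM in naive knockout libraries. In WT libraries it summed to 74.3 to 126 CPM at day 7 against 292 to 872 CPM in naive cells. From day 7 to day 14 lists moved in both genotypes. In knockout cells the epithelial, liver, muscle and nerve list summed to 783 to 952 CPM at day 14 against 1651 to 1890 CPM at day 7. The lymphocyte list summed to 43946 to 51143 CPM against 53345 to 62416 CPM, and the red cell and platelet list to 171 to 315 CPM against 82.0 to 127 CPM. In WT cells the first of these lists summed to 727 to 809 CPM against 1951 to 2521 CPM. The WT lymphocyte list summed to 41667 to 45999 CPM against 57115 to 60773 CPM. The WT red cell and platelet list summed to 162 to 228 CPM against 74.3 to 126 CPM. The WT endothelial and stromal list summed to 527 to 740 CPM at day 14, against 962 to 1269 CPM at day 7. In knockout cells that list overlapped, with 456 to 751 CPM at day 14 against 644 to 1001 CPM at day 7. Whether these sums follow cell types or levels within a cell type was not tested, nor was their part in the 3p changes.

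The 5p arm was called at none of these steps. miR-142a-5p averaged 8861 ± 3340 CPM in naive, 8297 ± 1282 in day 7 and 6484 ± 707 in day 14 AGO134 knockout cells, and 9256 ± 1944, 8902 ± 1120 and 7209 ± 474 CPM in WT cells (SD, n = 4, 4 and 3). The log2 changes at day 7 over naive were -0.26 in knockout and -0.23 in WT cells (edgeR adjusted p = 0.153 and 0.191). Those at day 14 over day 7 were -0.35 in knockout and -0.16 in WT cells (edgeR adjusted p = 0.104 and 0.477). Without naive knockout library 4 the day 7 change in knockout was -0.47 and was called (edgeR adjusted p = 0.00144). With scaling to the STD entries the day 7 changes were positive (0.46 in knockout and 0.38 in WT cells).

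The arm ratio rose on culture in both genotypes. At day 7 the ratio of every AGO134 knockout library, 2.52 to 3.31, was above every naive knockout library, 1.34 to 2.29. In WT cells the day 7 libraries spanned 2.57 to 4.32, against 1.57 to 2.56 in the naive libraries. The log2 ratio changed by 0.67 in knockout (limma adjusted p = 0.0100) and by 0.61 in WT cells (adjusted p = 0.0160). The share of hairpins called was 51.9% in knockout and 62% in WT cells. The median change over the 79 hairpins was 0.08 in knockout and 0.40 in WT cells. By size miR-142a ranked 42 in knockout and 51 in WT cells. From day 7 to day 14 the log2 ratio changed by 0.66 in knockout (limma adjusted p = 0.0306, 30.4% called) and by -0.23 in WT cells (adjusted p = 0.483, 24.1% called). The knockout change ranked 36 of 79 by size, where the median was -0.23. The exact permutation test gave p = 0.0286 for each of the 3 called changes, the smallest these designs can give, and 0.105 after Benjamini-Hochberg adjustment over 11 such tests. The WT change at day 7 was not called without naive library 4 or day 7 library 1 (limma adjusted p = 0.0726 and 0.0785), and the knockout change at day 14 was not called without day 7 library 3 or 4 or day 14 library 3 or 4 (adjusted p 0.0698 to 0.146).

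**Figure D3:**
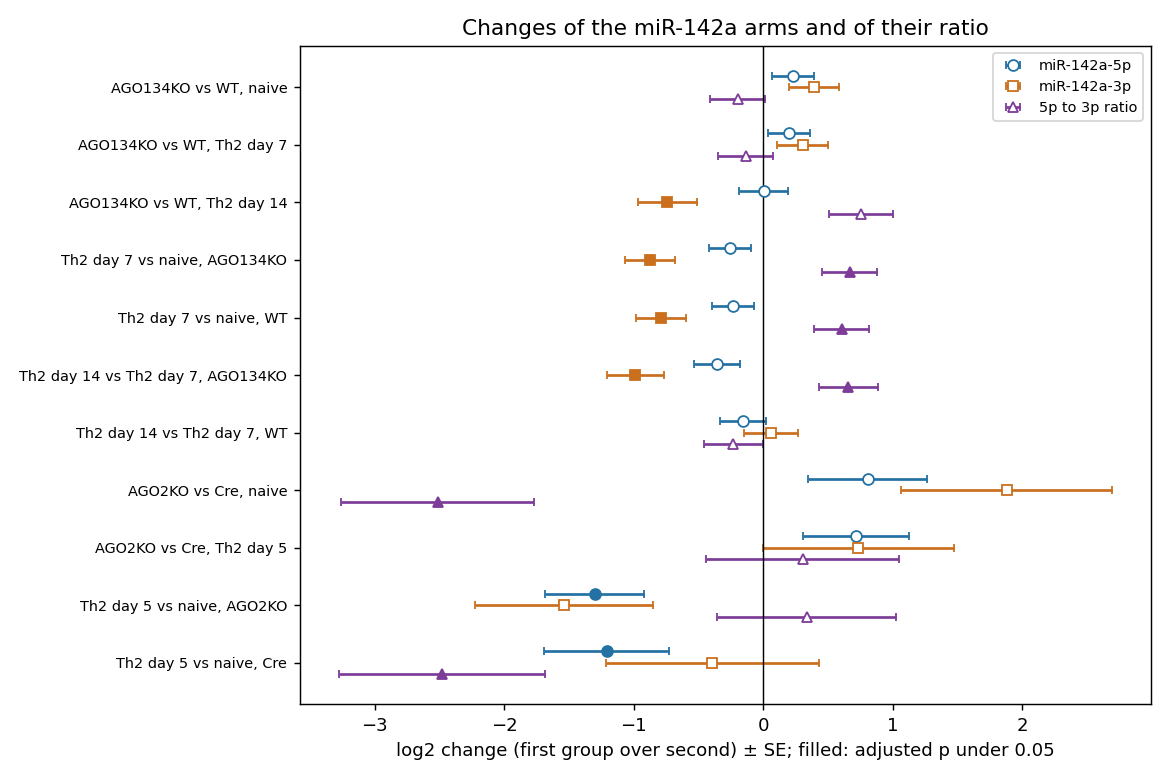
Log2 changes of miR-142a-5p, miR-142a-3p and the 5p to 3p ratio, first named group over second, with SE, from edgeR for the arms and limma for the ratio. Filled points have an adjusted p under 0.05. Of the 3 AGO134 knockout comparisons with WT, the 3p arm at day 14 (-0.74) has the only filled point.

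Ordered by mean CPM, the 5p levels of the first experiment formed a gradual series, with naive WT, day 7 WT, naive knockout, day 7 knockout, day 14 WT and day 14 knockout cells at 9256, 8902, 8861, 8297, 7209 and 6484 CPM. Each step between neighbours was below the larger of their SDs, except the last, which lay just above it and was not called after TMM normalisation. The 3p levels fell into fewer steps. Naive knockout and naive WT cells (4737 and 4433 CPM) were followed by day 7 WT, day 7 knockout and day 14 WT cells (2930, 2914 and 2737 CPM), which did not differ beyond their spread. Day 14 knockout cells stood last at 1472 CPM. The order of neighbours depends on the scaling. After TMM normalisation the 5p means were 10268 CPM in naive knockout, 8841 in naive WT, 8638 in day 7 knockout, 7524 in day 7 WT, 6761 in day 14 knockout and 6751 in day 14 WT cells. The 3p means were then 5544 ± 1120 CPM in naive knockout and 4258 ± 577 CPM in naive WT cells (SD, n = 4 each), a difference that was not called.

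The miRNAs closest in pattern were not the same for the arms. Likeness was taken as the root mean square difference in mean log2 level over the 6 groups of the first experiment, each miRNA centred on its own mean, among 192 miRNAs with at least 100 CPM in every group. Closest to miR-142a-5p were miR-29a-3p (0.146), miR-652-3p (0.15) and miR-26a-5p (0.166), against a median of 0.528, and its partner arm ranked 69 with 0.426. Closest to miR-142a-3p were miR-669p-5p (0.225), miR-669a-5p (0.225) and miR-669e-5p (0.229), against a median of 0.728, and its partner arm ranked 24 with 0.426. These miR-669 entries are near-identical members of a family, can share reads and are uncertain as separate values. By the arm ratio the closest of 79 hairpins were miR-1981 (0.281), miR-3068 (0.294) and miR-17 (0.333). The groups also differ in depth, and these values are descriptions with no test.

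A list of 12 miRNAs held 11 that are well known in T cells, all tested in the first experiment. Its other member, the myeloid miR-223-3p, was not tested. In Th2 day 14 cells 4 of 11 were called higher and 0 lower in AGO134 knockout than in WT cells by edgeR. Their median log2 fold change over the 11 was 0.19, against 0.00671 over all miRNAs tested. Of all tested, 8.9% were called higher and 10.7% lower. The 4 called were miR-150-5p, a regulator of Myb in lymphocytes (0.62), miR-181a-5p, which tunes T cell receptor signalling (0.69), let-7g-5p (0.51) and miR-342-3p (0.54). In naive cells 5 of 11 were called higher and 0 lower (median 0.19, against -0.05 over all). Of all 382 tested there, 8.12% were called higher and 39 were called lower. At day 7, 6 of 11 were called higher and 0 lower (median 0.37, against -0.02 over all, 8.64% called higher, 22 of 382 lower). miR-155-5p, a miRNA induced by T cell activation, was among them with 0.46 in naive and 0.52 in day 7 cells. These directions depend on scaling as those of the arms do, since library totals only and STD scaling shifted the median of all miRNAs to -0.33 and -0.77 in naive, -0.31 and -0.63 in day 7, and -0.15 and -0.44 in day 14 cells.

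**Figure D4:**
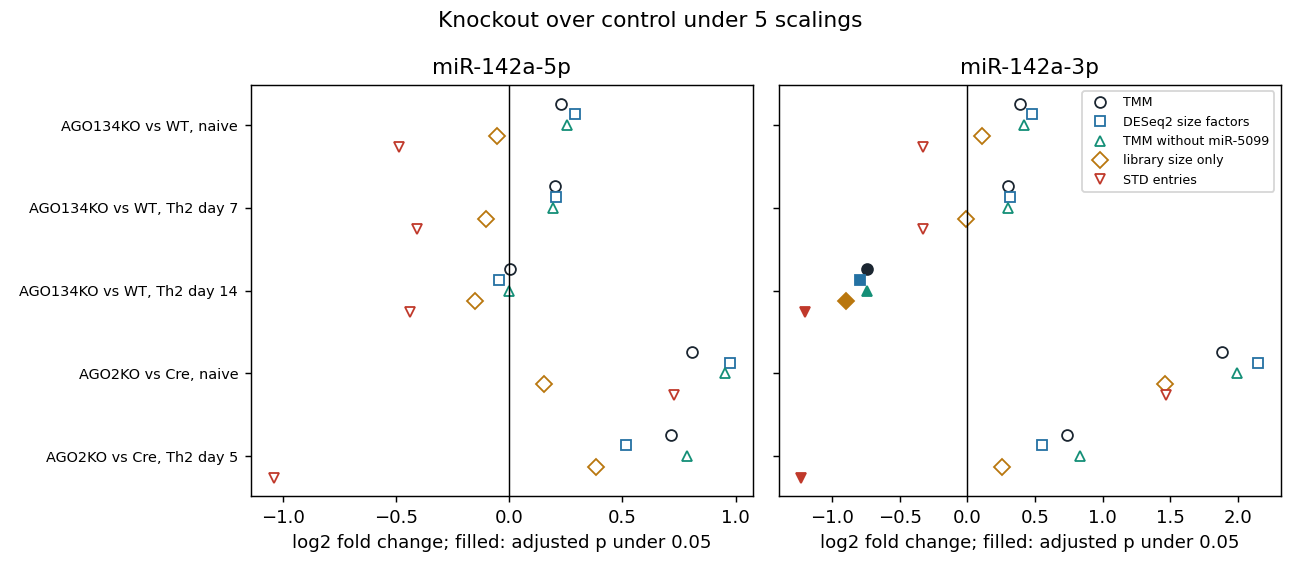
Log2 fold change of knockout over control for miR-142a-5p (left) and miR-142a-3p (right) under 5 scalings of the libraries, filled where the edgeR adjusted p is under 0.05. The 3p arm of Th2 day 14 AGO134 knockout cells lies between -1.20 and -0.74 and is filled under each, whereas the AGO134 knockout values in naive and day 7 cells change sign with the scaling.

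In the second experiment the arms stood the other way round. The 5p arm was the more abundant in 2 of 14 libraries, the naive Cre libraries B and C. In Th2 day 5 Cre cells the log2 ratio averaged -0.96, against 1.65 in Th2 day 7 WT cells of the first experiment. The difference of -2.61 was the 3rd largest by size among the 10 hairpins measured in both experiments, whose median was -1.14, and 3 of the 10 had the opposite sign in the other experiment. Experiment, genotype, day of culture and depth cannot be told apart here, and no test was made.

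In Th2 day 5 cells neither arm was called between genotypes. miR-142a-3p had 4570, 15243, 4506 and 7024 CPM in the AGO2 knockout libraries D to G, against 6201, 6854 and 6383 CPM in the Cre libraries A to C. Library E stood far above the rest, and there miR-5099 took 52.3% of miRNA counts, against 9.85% to 21.4% in the other Th2 libraries of the experiment. Its part in the result was not tested. The log2 fold change was 0.73 (SE 0.74, edgeR adjusted p = 0.437, 44.9% of 98 miRNAs called) and -0.16 without library E. miR-142a-5p had 3648, 4903, 4099 and 4862 CPM in AGO2 knockout, against 3853, 3136 and 3041 CPM in Cre libraries. The groups overlapped through knockout library D, and the log2 fold change was 0.71 (SE 0.41, edgeR adjusted p = 0.156). With scaling to the STD entries both arms turned negative, -1.23 for 3p, which was then called (adjusted p = 0.0340), and -1.04 for 5p, where the median of all miRNAs stood at -1.59. The STD share was 52.8% to 64.8% in AGO2 knockout and 32.0% to 38.5% in Cre libraries.

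The Th2 day 5 arm ratio was 0.798, 0.322, 0.910 and 0.692 in AGO2 knockout libraries, against 0.621, 0.458 and 0.476 in Cre libraries. The 3p arm led in all 7, and the groups overlapped through library E. The log2 ratio differed by 0.31 (limma adjusted p = 0.829, exact permutation p = 0.486), where 20% of the 10 hairpins were called.

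In naive cells of the second experiment the counts set the limit. miR-142a-3p had 29281, 7109, 6076 and 30910 CPM in AGO2 knockout libraries D to G, against 13306, 1678 and 464 CPM in Cre libraries A to C, the last pair resting on 1 count each. The knockout libraries fell into a high and a low pair, and the groups overlapped. The log2 fold change was 1.88 (SE 0.81, edgeR adjusted p = 0.152, 9.18% called), and without Cre library A it was 5.81 and called (adjusted p = 0.0153). miR-142a-5p had 14215, 4490, 3739 and 10397 CPM in AGO2 knockout, against 5091, 11745 and 8349 CPM in Cre libraries, with mean CPM slightly lower in AGO2 knockout (8210 ± 4989, SD, n = 4) than in Cre cells (8395 ± 3327, n = 3) and a log2 fold change after TMM normalisation of 0.81 (SE 0.46, edgeR adjusted p = 0.297). With library A as the only naive Cre library the log2 fold changes were 1.31 for 3p (edgeR adjusted p = 0.665) and 1.47 for 5p (adjusted p = 0.346).

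The naive arm ratio rested on the shallow libraries. The share of 5p counts was 32.7%, 38.7%, 38.1% and 25.2% in AGO2 knockout libraries D to G. It was 27.7% in Cre library A, with an exact 95% interval of 20.9% to 35.3%, 87.5% in library B (47.3% to 99.7%) and 94.7% in library C (74.0% to 99.9%). The log2 ratio was lower in AGO2 knockout than in Cre cells by limma (-2.51, adjusted p = 0.00533, 20% called), but the exact permutation test gave p = 0.114. With library A as the only naive Cre library the difference was 0.39 and was not called (limma adjusted p = 0.728), that library being assumed to vary as the other groups do. The knockout effects on the ratio in Th2 and naive cells differed by 2.82 (limma adjusted p = 0.0175, 60% called), and by -0.08 with library A alone (adjusted p = 0.911).

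In the second experiment the 5p arm was lower in Th2 than in naive cells under TMM normalisation. The mean level of miR-142a-5p was 4378 ± 611 CPM in Th2 and 8210 ± 4989 CPM in naive AGO2 knockout cells (SD, n = 4 each), and the ranges of 3648 to 4903 and 3739 to 14215 CPM overlapped. In Cre cells it was 3343 ± 444 CPM in Th2 and 8395 ± 3327 CPM in naive cells (n = 3 each), and all Th2 libraries were below all naive libraries. The log2 changes were -1.30 in AGO2 knockout (SE 0.38, edgeR adjusted p = 0.00942) and -1.21 in Cre cells (SE 0.48, adjusted p = 0.0356). The share of miRNAs called was 51% in AGO2 knockout and 56.1% in Cre cells, and the share called lower was 13.3% in AGO2 knockout and 19.4% in Cre cells. The Cre call was lost on leaving out any 1 of its 6 libraries (-1.32 to -0.90, adjusted p 0.0739 to 0.160) and with naive library A alone (-1.13, adjusted p = 0.181). With the replicate block both calls were lost (-1.13 in AGO2 knockout and -1.21 in Cre cells). Scaling to the STD entries ended the knockout call (-0.26) and turned the Cre change to 1.51 (adjusted p = 0.0134), where the median of all miRNAs stood at 1.66 in AGO2 knockout and 3.30 in Cre cells.

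Whether miR-142a-3p was called between Th2 and naive cells of the second experiment depended on the setting. The log2 changes were -1.54 in AGO2 knockout (SE 0.69, edgeR adjusted p = 0.0680) and -0.39 in Cre cells (SE 0.82, adjusted p = 0.703). The knockout change was called with library totals only (-1.25), with DESeq2 size factors (-1.98), without miR-5099 (-1.93) and without the filter (-1.73). The Cre change was 2.05 and called with scaling to the STD entries (edgeR adjusted p = 0.00119), -1.58 with naive library A alone (adjusted p = 0.169), and between -1.09 and 3.28 with 1 library left out. The knockout effects in Th2 and naive cells differed by -1.15 for 3p and -0.09 for 5p (edgeR adjusted p = 0.492 and 0.930, 12.2% called), and with naive Cre library A alone by -0.50 for 3p and -0.70 for 5p (adjusted p = 0.815 and 0.619). The log2 ratio changed by 0.33 in AGO2 knockout (limma adjusted p = 0.629, 50% called) and by -2.48 in Cre cells (adjusted p = 0.0239, 10% called), and by 0.42 in Cre cells with naive library A alone (adjusted p = 0.962). Of all 98 miRNAs tested in Th2 AGO2 knockout against Cre cells, edgeR called 19.4% higher and 25 miRNAs lower. Of the 9 listed T cell miRNAs tested, 2 were called higher there and 0 lower, miR-150-5p (3.43) and miR-181a-5p (1.42). In naive cells 1 was called in each direction, miR-181a-5p (1.79) and let-7g-5p (-1.01), where 2.04% of all were called higher and 7.14% lower. The naive calls used the shallow Cre libraries B and C. A fit with library A alone has 1 naive control library, too few to show what the calls rest on. Over all miRNAs edgeR called 9 of 98 in naive cells. It called 18 of 121 without Cre library A, 5 of 117 without B and 4 of 117 without C.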

How the data were processed

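The deposited values are whole-number counts per mature miRNA entry, 1 file per library, per the file headers. Libraries were TruSeq small RNA libraries per the labels, and the submitters' processing notes name the build GRCm38. Aligner and counting tool: not given in the sources used here. Of 2119 entries, 9 named STD were left out of library sizes and tests. A name with several entries kept the one with the highest total, giving 1966 names. CPM is per 1000000 of these counts.

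Counts were tested with edgeR 4.0.16 in R 4.3.3 (quasi-likelihood, TMM, filterByExpr at its minimum of 10 counts, Benjamini-Hochberg over 382 and 98 miRNAs), with a mean per group, each experiment on its own. Arm ratios were tested with limma 3.58.1 on log2 ratios with a pseudocount of 0.5 over hairpins averaging at least 10 counts in each arm, and with exact permutation tests. Calls are at an adjusted p under 0.05. Alternatives included DESeq2 1.42.0. Functions were tested on simulated data. Replicates were compared by chi-square, and the lowest statistic per degree of freedom over 48 pairs was 1.88, so none was a repeat deposit. Counts of 0 allow up to 3 counts, 11.0 to 46.7 CPM in the first experiment and 51.4 to 5034 CPM in the second. Intervals and this limit cover counting error only.

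The members, the lists of markers and T cell miRNAs and the rule for likeness were chosen with earlier results of these data known. miRNAs named are the members, miR-142b, the 3 closest by likeness, and members of those lists.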

Additional observations from a re-analysis of the deposited data

Results flagged for a closer look

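In Th2 day 7 AGO134 knockout cells, library 3 had 3841 CPM of miR-142a-3p while the other 3 libraries had 2566 to 2658 CPM, a gap of 0.928 of the group's range. Chance flags about 1 in 20 groups, and this was 1 of 18 combinations of group and measure examined. Its 5p to 3p ratio was 2.52, close to the 2.54 of library 4.

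The AGO134 knockout effect on miR-142a-3p differed between Th2 day 14 and day 7 by -1.04 on the log2 scale (edgeR interaction, adjusted p = 0.0194). The effect was -0.74 at day 14 and 0.30 at day 7.

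The AGO2 knockout effect on the 5p to 3p ratio differed between Th2 day 5 and naive cells by 2.82 on the log2 scale (limma interaction, adjusted p = 0.0175). It was 0.31 in Th2 and -2.51 in naive cells, and the difference was -0.08 with naive Cre library A as the only naive control.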

How the results depend on the processing

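Across 42 results, 568 values under alternatives kept direction and side of the threshold, 47 lost the threshold, 18 gained it and 59 turned sign. With few counts in the second experiment, limits of depth apply to all its arm ratios. All values below are log2 changes, from edgeR for the arms and limma for the ratio.

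With library totals only, 5p changed by -0.054 (naive), -0.10 (day 7) and -0.15 (day 14) and 3p by -0.0083 (day 7) between AGO134 knockout and WT, 3p by -0.10 at WT day 14 over day 7, the 3p effect difference day 14 minus day 7 was -0.88, 3p in AGO2 knockout Th2 over naive was -1.25 (called), and the 5p AGO2 effect difference was 0.23. With STD scaling, AGO134 knockout over WT was -0.49, -0.41 and -0.44 for 5p and -0.32 and -0.33 (naive, day 7) for 3p. Day 7 over naive was 0.46 in knockout and 0.38 in WT for 5p, and -0.14 in each for 3p. WT day 14 over day 7 was -0.15 for 3p. The effect differences were 0.080 (5p, day 7 minus naive) and -0.87 (3p, day 14 minus day 7). In the second experiment STD scaling gave -1.04 (5p) and -1.23 (3p) for Th2 AGO2 knockout over Cre, 1.51 and 2.05 for Cre Th2 over naive, -0.26 for 5p in AGO2 knockout Th2 over naive, and -2.69 for the 3p effect difference (called).

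The day 14 5p change, 0.00223, was -0.046 with DESeq2 size factors, -0.046 with DESeq2, -0.00063 without miR-5099, -0.032 without the filter and -0.11 with all locus entries, an alternative added after seeing the data. 3p in AGO2 knockout Th2 over naive was called with DESeq2 size factors (-1.98), without miR-5099 (-1.93) and without the filter (-1.73). Without the filter, 3p was 2.12 in naive AGO2 knockout over Cre (called), and Cre Th2 over naive was -0.70 for 5p and 0.022 for 3p. All locus entries gave 0.0078 for 5p at WT day 14 over day 7, 0.014 for the 5p effect difference day 7 minus naive and -0.92 for 5p in Cre Th2 over naive.

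The ratio at day 14 was called with a pseudocount of 5 (0.74) and with the edgeR arm test (0.75). The naive AGO2 ratio was -1.49 and -1.39 under these and the effect difference 1.80 and 1.71, all uncalled, and Cre Th2 over naive was -1.32 with the arm test. The exact permutation test did not call the naive AGO2 ratio (-2.51). With only the groups compared, 5p in Th2 AGO2 knockout over Cre was called (0.76), and the ratios of naive AGO2 knockout over Cre (-2.51) and Cre Th2 over naive (-2.48) were not. With naive Cre library A alone, added after seeing the data, Cre Th2 over naive was -1.13 for 5p and 0.42 for the ratio, the naive ratio was 0.39 and the effect difference -0.082.

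Replicate numbers did not clearly pair the libraries. Same-numbered libraries correlated between -0.31 and 0.15, and in no comparison did every library correlate best with its own number. Such weak correlations cannot exclude that same-numbered libraries share an origin. With the replicate block the day 14 ratio was 0.93 (called), Cre Th2 over naive -1.21 for 5p, 0.62 for 3p and -2.48 for the ratio, AGO2 knockout Th2 over naive -1.13 for 5p (these calls lost), and the 5p AGO2 effect difference 0.080. Calls over all miRNAs at day 14 were 63 with the block and 75 without. Genotype comparisons of the second experiment share no letters and have no block.

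Leaving out 1 library in turn gave, for AGO134 knockout over WT, 0.13 to 0.45 (5p, naive), -0.065 to 0.043 (5p, day 14), -0.99 to -0.55 (3p, day 14), -0.23 to 0.018 (ratio, day 7) and 0.52 to 0.96 (ratio, day 14). Times gave -0.14 to 0.19 (3p) and -0.40 to 0.0056 (ratio) for WT day 14 over day 7, 0.45 to 0.71 for the ratio at WT day 7 over naive, -0.47 to -0.17 for 5p at knockout day 7 over naive, and 0.53 to 0.86 for the ratio at knockout day 14 over day 7. Effect differences day 7 minus naive were -0.27 to 0.071 (5p), -0.28 to 0.026 (3p) and -0.079 to 0.21 (ratio), and day 14 minus day 7 -1.26 to -0.78 (3p). In the second experiment they were 1.31 to 5.81 (3p, naive genotype), -0.16 to 1.08 (3p, Th2 genotype), -3.96 to -1.46 (ratio, naive genotype), -1.32 to -0.90 (5p), -1.09 to 3.28 (3p) and -3.93 to -1.43 (ratio) for Cre Th2 over naive, -2.84 to -1.26 for 3p in AGO2 knockout Th2 over naive, and -0.63 to 0.16 (5p), -5.19 to -0.55 (3p) and 1.77 to 4.27 (ratio) for effect differences. 3p in AGO2 knockout Th2 over naive was called without naive library E or F or Th2 library E. The ratio calls were lost without naive Cre library B or C. Beyond the constructions named, the cause was not tested.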
